A study of Mus musculus with 4 samples.

Results

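The mouse zinc finger genes numbered Zfp600 to Zfp999 were followed in RNA-seq libraries of mouse embryonic stem cells (mESCs) with and without the Spen knockout (KO) label. They were chosen by name alone, as protein-coding genes of the GENCODE vM1 annotation with a symbol from Zfp600 to Zfp999, which 150 of the 37310 gene entries in the count table fulfilled. Of these, 137 had at least 40 counts summed over the 4 libraries and are described here, and 13 had fewer. Zfp703 was just inside this minimum with 40 summed counts, and Zfp872 with 34, Zfp641 with 28 and Zfp831 with 18 were just outside. The others below it were Zfp663, Zfp648, Zfp804b and Zfp781, each with 6 or fewer, and 6 entries with no count in any library, which were Zfp616, Zfp735, Zfp804a, Zfp957 and a second entry each of Zfp664 and Zfp738. The 137 entries carry 136 symbols, since Zfp708 has 2 entries.

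C2H2 zinc finger proteins bind DNA through tandem fingers, each a short fold held by a zinc ion, and the order of the fingers sets the sequence that is bound. Many mouse members also carry a KRAB box, through which they bind the scaffold protein Trim28. Trim28 in turn brings the H3K9 methyltransferase Setdb1 and heterochromatin proteins to the bound site, and in mESCs this pathway is known for the silencing of retroelements. KRAB zinc finger genes have multiplied by tandem duplication and lie in clusters along the chromosomes. Spen is a large RNA-binding repressor that is needed for silencing by Xist, and it is also known as a corepressor of RBPJ, the DNA-binding factor of the Notch pathway.

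The WT group was the HATX mESC line and the KO group was clone 2 of a Spen KO in the same line, with 2 libraries each. Both lines carry an Xist transgene on the X chromosome that doxycycline can switch on, both were grown in serum with LIF on gelatin, and the labels give no treatment. The study describes the cells as haploid, and it gives the KO both as a full deletion of Spen and as the loss of the majority of it. The KO group is 1 clone, so whatever else sets that clone apart from the WT line enters each value below.

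Total counts per library were 36667685 to 61908422, and the zinc finger genes took 0.274% to 0.314% of them. RNA of the targeted gene was more abundant under the KO label. Spen, at chr4:141023805-141094512, held 3716 and 3047 normalized read counts (raw counts divided by each library's size factor) in WT and 7797 and 6242 in the libraries labelled KO. Both KO-labelled libraries lay above both WT libraries, with a log2 fold change of 1.05 ± 0.21 (SE) and an adjusted p of 7.70e-06 by DESeq2. Counts summed over a whole gene do not show which exons the reads came from, so they do not test the deletion, and the libraries are called KO-labelled throughout. All 8 stem cell markers examined were detected, with summed normalized counts of 221982 and 227225 in WT libraries and 229761 and 240985 in KO-labelled libraries. The fibroblast markers summed to 211 to 213 against 469 to 531, of which Thy1 held 118 and 137 against 356 and 414. Col1a1 was at 27.8 and 21.8 against 49.6 and 47.7, Pdgfrb at 38.4 and 30.5 against 49.6 and 52.4, Col1a2 at 13.3 and 13.1 against 5.22 and 6.26, Col3a1 at 10.6 and 10.9 against 8.71 and 9.39, and Lum and Postn were at or near 0. The primitive endoderm markers summed to 530 to 566 against 246 to 285, the trophoblast markers to 967 to 1006 against 385 to 397, and 3 two-cell-like markers to 167 to 265 against 164 to 235. At an adjusted p under 0.05, 2 of the 8 stem cell markers and 1 fibroblast marker (Thy1) rose. At the same threshold 2 primitive endoderm and 3 trophoblast markers fell, and 0 two-cell-like markers passed. Of all genes tested, 16.4% were higher and 15.8% lower at this threshold. The part of other cell types in the values below was not tested, and in bulk samples fewer cells of a type and less RNA per cell cannot be told apart.

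The promoters of 5 KRAB zinc finger genes from 1 cluster on chromosome 7 are shown first, since the 2 genes with the smallest adjusted p among the 137, Zfp819 and Zfp715, are among them. Each runs from 250 bases before to 50 bases after the gene's start in RefSeq on build GRCm38.p6, and is written 5′ to 3′ in the direction of the gene. Capitals mark the letters GCATGCGC, a core of the sequence that the transcription factor NRF1 is known to bind.
Zfp936, chr7:43177340-43177639, plus strand: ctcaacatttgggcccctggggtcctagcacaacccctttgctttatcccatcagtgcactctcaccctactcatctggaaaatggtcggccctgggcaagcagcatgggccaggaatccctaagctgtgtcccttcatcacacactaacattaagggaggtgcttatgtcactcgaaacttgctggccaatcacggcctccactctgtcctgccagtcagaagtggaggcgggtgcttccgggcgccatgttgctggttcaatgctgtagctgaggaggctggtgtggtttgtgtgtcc
Zfp715, chr7:43313251-43313550, minus strand: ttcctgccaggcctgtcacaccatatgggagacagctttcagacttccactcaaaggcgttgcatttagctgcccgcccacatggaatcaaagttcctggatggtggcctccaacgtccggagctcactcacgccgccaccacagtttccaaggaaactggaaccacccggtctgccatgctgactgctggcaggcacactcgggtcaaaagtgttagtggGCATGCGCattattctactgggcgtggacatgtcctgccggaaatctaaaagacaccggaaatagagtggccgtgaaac
Zfp658, chr7:43562120-43562419, plus strand: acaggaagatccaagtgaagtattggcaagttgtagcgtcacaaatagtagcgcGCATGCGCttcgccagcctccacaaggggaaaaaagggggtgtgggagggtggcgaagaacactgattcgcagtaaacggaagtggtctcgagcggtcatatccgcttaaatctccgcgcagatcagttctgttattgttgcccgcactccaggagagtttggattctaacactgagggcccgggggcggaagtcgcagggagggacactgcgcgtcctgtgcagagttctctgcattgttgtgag
Zfp719, chr7:43579336-43579635, plus strand: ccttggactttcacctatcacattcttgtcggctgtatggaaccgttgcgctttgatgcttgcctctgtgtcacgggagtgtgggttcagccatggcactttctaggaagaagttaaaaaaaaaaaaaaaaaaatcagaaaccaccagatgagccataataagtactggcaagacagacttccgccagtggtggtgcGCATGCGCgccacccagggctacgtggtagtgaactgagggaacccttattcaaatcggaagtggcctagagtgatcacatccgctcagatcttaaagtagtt
Zfp819, chr7:43606919-43607218, plus strand: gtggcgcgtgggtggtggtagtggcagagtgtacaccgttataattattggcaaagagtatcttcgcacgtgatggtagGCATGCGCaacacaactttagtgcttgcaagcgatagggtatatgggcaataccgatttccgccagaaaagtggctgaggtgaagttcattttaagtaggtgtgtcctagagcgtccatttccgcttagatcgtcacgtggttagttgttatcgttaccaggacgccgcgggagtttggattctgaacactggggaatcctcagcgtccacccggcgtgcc

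GCATGCGC stood in 4 of these 5 promoters, those of Zfp715, Zfp658, Zfp719 and Zfp819, and was not found in that of Zfp936. It was searched on both strands. In Zfp658 and Zfp719 it overlaps its own reverse complement, GCGCATGC, and the longest stretch shared by any pair of the 5 promoters is 13 bases, in Zfp658 and Zfp819. A promoter was listed for 116 of the 136 symbols, and 6 of these, 5.17%, held GCATGCGC, against 2.8% of the promoters of 27025 RefSeq genes. The other two were Zfp653 on chromosome 9 and Zfp639 on chromosome 3. Among other protein-coding genes with a listed promoter, 529 held GCATGCGC and 9519 did not, a share close to that of the zinc finger genes. These letters were picked after the promoters and the changes below had been seen, so the match is a description.

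RNA levels of the zinc finger genes were close to those of the WT line, and none passed the study's thresholds. Those thresholds are a fold change of at least 2 with an adjusted p under 0.001. Of the 137 genes, 0 were higher and 0 lower in KO-labelled libraries, beside 1.36% higher and 3.15% lower among all 17710 genes tested. edgeR also gave 0 in each direction, and 45 of the 137 (32.8%) had an unadjusted p under 0.05 in DESeq2, beside 39.6% of all genes tested. Without a fold minimum and at an adjusted p under 0.05, 20 genes (14.6%) were higher and 11 (8.03%) lower, beside 16.4% higher and 15.8% lower of all genes tested. With chromosome medians removed 11 were higher and 13 lower, and edgeR gave 25 higher and 19 lower. Fewer passed in each direction with any 1 library left out, where 1 group holds fewer libraries. Shares over all genes are not given for these other fits. At an adjusted p under 0.001, again without a fold minimum, 5 were higher and 3 lower, beside 8.46% and 8.87% of all genes. The 5 were Zfp819, Zfp715, Zfp830, Zfp740 and Zfp655, and the 3 were Zfp775, Zfp606 and Zfp652. Both KO-labelled libraries lay above both WT libraries in 49 genes (35.8%) and below them in 36 (26.3%), beside 35.4% and 34.8% of all genes.

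The log2 fold changes of the 137 genes had a median of 0.02, with quartiles of -0.19 and 0.22, beside a median of 0.02 for 14548 protein-coding genes. The median size of the change, without its sign, was 0.22 for the zinc finger genes, 0.29 for protein-coding genes and 0.31 for all genes tested. Only Zfp964 and Zfp608, 1.46% of the 137, were fitted past 2-fold in either direction, beside 10.1% of protein-coding genes, and neither passed an adjusted p of 0.05. Zfp964, named after its values were seen, held 34.5 and 53.4 normalized counts in WT and 18.3 and 19.6 in KO-labelled libraries (log2 fold change -1.22 ± 0.61, adjusted p = 0.119). The highest fold change was that of Zfp879, with 42.4 and 46.8 in WT and 96.7 and 72.0 in KO-labelled libraries (0.91 ± 0.43, adjusted p = 0.0942). Both are low genes whose groups did not overlap. In 122 of the 137 genes (89.1%) the 95% interval of the fold change lay wholly within 2-fold, which held for 68.4% of protein-coding genes. For 94 of the 106 genes that did not pass an adjusted p of 0.05, the interval lay within 2-fold. The 15 genes whose interval reached 2-fold had a median of 234 summed counts, against 2350 in the other 122. Among the 15 were Zfp819, Zfp715 and Zfp647, which passed an adjusted p of 0.05 and had 95% intervals of the fold from 1.61 to 2.12, 1.55 to 2.01 and 0.478 to 0.835. Between replicates, the median difference of a zinc finger gene on the log2 scale was 0.11 in WT and 0.15 in KO-labelled libraries, and 0.21 between the group means.

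**Figure D1:**
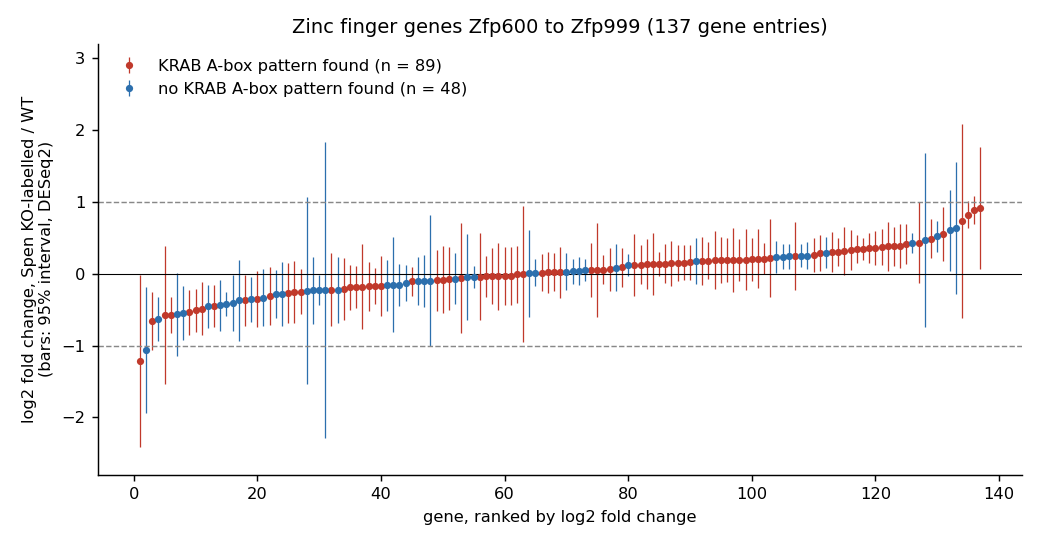
Log2 fold change of each of the 137 zinc finger genes, ranked from lowest to highest, with its 95% interval from DESeq2 (bars) and coloured by whether a KRAB A-box pattern was found. Dashed lines mark a 2-fold change either way, and 2 points lie beyond them, both on the lower side.

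**Figure D2:**
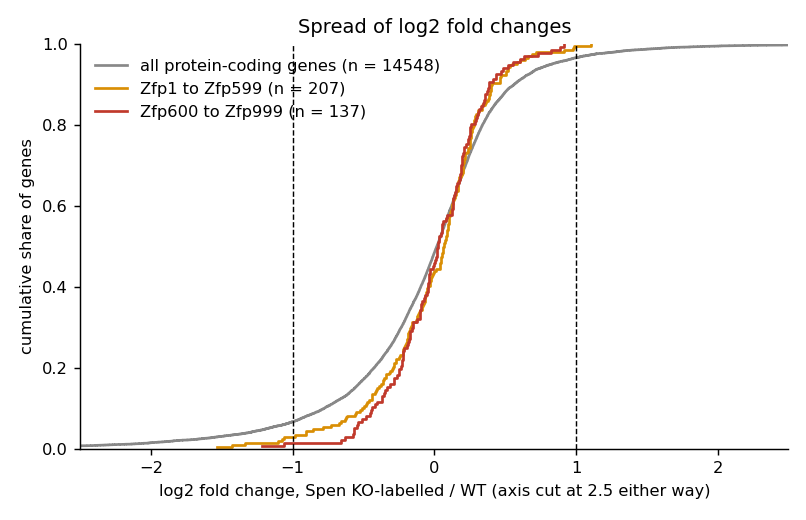
Cumulative share of genes (vertical axis) by log2 fold change (horizontal axis, KO-labelled over WT) for 14548 protein-coding genes, 207 zinc finger genes Zfp1 to Zfp599 and the 137 genes Zfp600 to Zfp999. The curves of both zinc finger sets are steeper than that of all protein-coding genes. The curve of Zfp600 to Zfp999 crosses it near 0. That of Zfp1 to Zfp599 crosses it between its own median, 0.07, and its upper quartile, 0.25.

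Summed over the 137 genes, normalized counts were 133430 and 134811 in WT libraries and 149557 and 145435 in KO-labelled libraries, a ratio of the means of 1.10. Both KO-labelled sums lay above both WT sums. Zfp740 gave 24.5% of the net rise, Zfp819 11.8%, Zfp715 11.4%, Zfp655 9.32% and Zfp710 7.63%, and these 5 genes together gave 64.6%. The largest loss was that of Zfp652, a repressor that partners CBFA2T3, which fell from 3667 and 3814 to 2777 and 2816 normalized counts.

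The genes with the largest increases past an adjusted p of 0.05 were Zfp819, Zfp715, Zfp658, Zfp830 and Zfp882. Zfp819, a KRAB protein known to repress retroelements in mESCs, lies at chr7:50862539-50873655 on build mm9, as do all gene positions below. It held 1924 and 1821 normalized counts in WT and 3194 and 3712 in KO-labelled libraries. The groups did not overlap, and the log2 fold change was 0.88 ± 0.10 (SE), with an adjusted p of 8.73e-17. Zfp715, a KRAB gene with 18 fingers at chr7:50551567-50568664, held 2128 and 1849 normalized counts in WT and 3503 and 3519 in KO-labelled libraries. Both KO-labelled libraries were again the higher, by 0.82 ± 0.10 on the log2 scale (adjusted p = 5.55e-16). Zfp658 is a KRAB gene whose human counterpart is known from the transcriptional response to zinc. It was much less abundant, with 282 and 270 normalized counts in WT and 393 and 419 in KO-labelled libraries. Its groups did not overlap (log2 fold change 0.56 ± 0.19, adjusted p = 0.0142), but with chromosome medians removed the change was 0.46 (adjusted p = 0.0563).

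Zfp830, which has no KRAB pattern and a single finger, is known as a nuclear protein needed for the survival of early embryonic cells. It held 1542 and 1372 normalized counts in WT and 2008 and 2164 in KO-labelled libraries. The groups did not overlap, and the log2 fold change was 0.52 ± 0.11 (adjusted p = 1.15e-05). Zfp882 held 595 and 660 normalized counts in WT and 903 and 856 in KO-labelled libraries, a log2 fold change of 0.49 ± 0.14 (adjusted p = 0.00248). All of its KO-labelled values lay above the WT values. It shares exon positions on the same strand with Zfp617, whose own log2 fold change was 0.14 (adjusted p = 0.513), and counts in the shared part cannot be assigned to either gene with certainty.

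The genes with the largest decreases past an adjusted p of 0.05 were Zfp647, Zfp775, Zfp606, Zfp839 and Zfp948, of which Zfp647, Zfp606 and Zfp948 matched the KRAB pattern. Zfp647, at chr15:76741281-76748440, held 341 and 362 normalized counts in WT and 217 and 227 in KO-labelled libraries. Both KO-labelled libraries lay below both WT libraries, with a log2 fold change of -0.66 ± 0.21 (adjusted p = 0.00577). Zfp775, at chr6:48563179-48573226, held 781 and 699 normalized counts in WT and 444 and 512 in KO-labelled libraries. It too had no overlap between the groups (-0.63 ± 0.16, adjusted p = 0.000359). Zfp606, at chr7:13063642-13081584, held 1078 and 1048 normalized counts in WT and 746 and 686 in KO-labelled libraries (-0.57 ± 0.13, adjusted p = 7.29e-05). Of the 34 zinc finger genes on chromosome 7 it was the only one that fell at an adjusted p under 0.05, while 8 rose, beside 15.8% lower and 16.4% higher of all genes tested. Of the 8, 4 lie in the cluster with Zfp715 and Zfp819, where other genes rose as well.

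Zfp839, at chr12:112088489-112107312, held 416 and 423 normalized counts in WT and 314 and 261 in KO-labelled libraries. The groups did not overlap (-0.54 ± 0.19, adjusted p = 0.0182), but the median of the other genes on chromosome 12 was -0.36, and with chromosome medians removed the change was -0.22 (adjusted p = 0.443). Zfp948, at chr17:21704010-21725664, held 789 and 671 normalized counts in WT and 545 and 460 in KO-labelled libraries (-0.54 ± 0.16, adjusted p = 0.00404). Its lower WT library still lay above both KO-labelled libraries.

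Of these 10 genes, Zfp819, Zfp715, Zfp830 and Zfp606 stayed past an adjusted p of 0.05 with any 1 library left out. Zfp658, Zfp647 and Zfp839 did not pass it with any library left out, where the adjusted p reached 0.228, 0.171 and 0.306. Zfp882 passed only without WT replicate 2, Zfp775 without WT replicate 2 or KO-labelled replicate 2, and Zfp948 without WT replicate 2 or KO-labelled replicate 1.

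**Figure D3:**
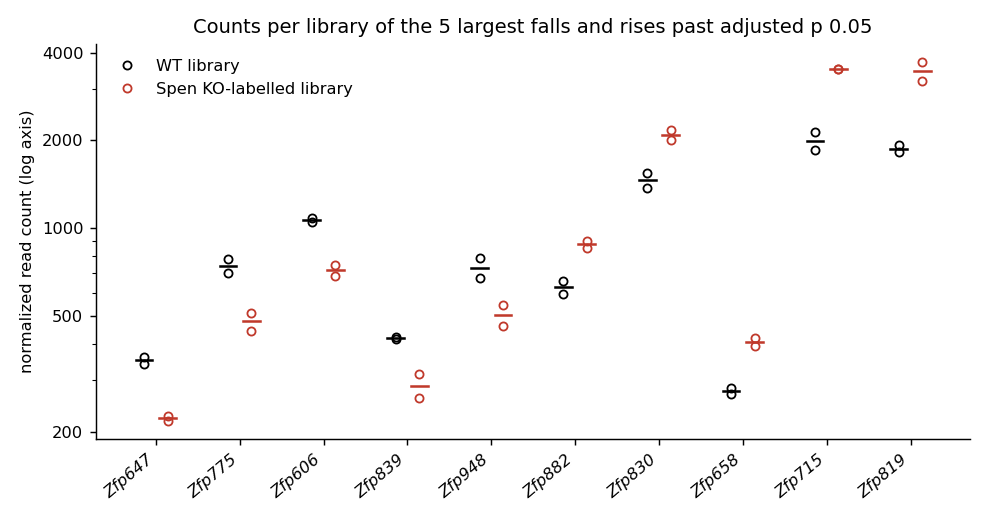
Normalized read counts (log axis) of the 5 genes with the largest decreases and the 5 with the largest increases past an adjusted p of 0.05, with 1 circle per library and a line at the mean of each group of 2. In all 10 genes the WT and KO-labelled libraries do not overlap, as in all 31 genes past that threshold. The genes were picked by adjusted p, which favours groups without overlap, so this is no separate support.

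On a scale of counts per kilobase of exon and per 1000000 counts of the library, which allows levels of different genes to be compared, the median level of the 137 genes was 3.29, beside 4.66 for protein-coding genes. Levels ran from 0.0629 for Zfp703 to 47.2 for Zfp740. Zfp740, Zfp622 and Zfp706 were the 3 highest, at 47.2, 31.1 and 29.0. None of the 3 matched the KRAB pattern. Zfp740, known to bind runs of C, held 9511 and 9128 normalized counts in WT and 12207 and 12982 in KO-labelled libraries, and rose by 0.43 ± 0.07 on the log2 scale (adjusted p = 1.58e-08). Zfp622, which takes part in the maturation of the large ribosomal subunit, held 4154 and 4139 in WT and 3985 and 4500 in KO-labelled libraries. Its WT values lay between the KO-labelled values, with a log2 fold change of 0.03 and a 95% interval of the fold from 0.909 to 1.15. Zfp706, a small protein known for restraining self-renewal genes in mESCs, had a log2 fold change of 0.05 and an interval from 0.934 to 1.15.

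Of a list of 19 zinc finger genes with described roles, 17 were among the 137 genes, with 18 entries. At an adjusted p under 0.05, 6 of the 18 rose and 0 fell, beside 16.4% higher and 15.8% lower of all genes tested, and the median log2 fold change was 0.07. The list was chosen by role with earlier results known, so these counts are a description. Of the genes listed for binding retroelements, Zfp819 and Zfp600 rose. Zfp600 held 928 and 954 normalized counts in WT and 1319 and 1117 in KO-labelled libraries (log2 fold change 0.37 ± 0.13, adjusted p = 0.0145). With chromosome medians removed Zfp600 was at 0.58 (adjusted p = 6.13e-05). Its groups did not overlap, but 89.3% of its exonic 50-base words occur elsewhere in the genome, so its reads may be shared with copies. Zfp932, known to control ERVK elements, held 898 and 989 in WT and 1130 and 934 in KO-labelled libraries. These groups overlapped (0.13 ± 0.14, adjusted p = 0.536), and 57.9% of its exonic 50-base words are copied elsewhere. Zfp961 had a log2 fold change of 0.13 (adjusted p = 0.256). The 2 entries of Zfp708, a gene known for binding RMER19B elements, had log2 fold changes of -0.22 and -0.06, with adjusted p of 0.580 and 0.941.

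The other genes of this list act as cofactors or have tasks outside retroelement silencing. Zfp687, a partner of Zmynd8, held 3207 and 3191 normalized counts in WT and 3808 and 3792 in KO-labelled libraries (log2 fold change 0.25, adjusted p = 0.00928). Zfp644, a partner of the H3K9 methyltransferases G9a and GLP, held 3316 and 3405 in WT and 4353 and 3655 in KO-labelled libraries (0.25, adjusted p = 0.0316). Zfp609, a partner of Nipbl and Integrator, held 2886 and 3125 in WT and 3700 and 3422 in KO-labelled libraries (0.24, adjusted p = 0.0233). All 3 rose without overlap, and with chromosome medians removed their adjusted p were 0.150, 0.127 and 0.409. With 1 library left out the adjusted p of these 3 genes and of Zfp600 reached 0.129, 0.501, 0.297 and 0.349. Zfp618, a partner of Uhrf2, had a log2 fold change of -0.10, Zfp746, which represses the gene for PGC-1 alpha, 0.08, and Zfp827, which recruits the NuRD complex, 0.03. Zfp661 was at -0.03 and Zfp711, a partner of Phf8, at -0.15. None of these 5 passed an adjusted p of 0.05. Zfp703, a corepressor of the NET family, held 10.6, 10.9, 12.2 and 6.26 normalized counts in WT libraries 1 and 2 and KO-labelled libraries 1 and 2. These are too few to resolve a change, and its 95% interval of the fold ran from 0.204 to 3.58.

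A KRAB A-box pattern was found in the translated coding sequence of 89 of the 137 genes, with up to 2 mismatches allowed at the fixed residues. In the 89 KRAB genes the log2 fold change was 0.12 at the median, and 13 (14.6%) rose and 6 (6.74%) fell at an adjusted p under 0.05, beside 16.4% and 15.8% of all genes tested. The 48 other genes had a median of -0.10, and 7 rose and 5 fell. Both KO-labelled libraries were the higher in 40.4% of KRAB genes and the lower in 20.2%, against 27.1% and 37.5% of the genes without the pattern, and 35.4% and 34.8% of all genes tested. The difference between the medians was not tested. Without KO-labelled replicate 1 the median of the KRAB genes was 0.03, and without KO-labelled replicate 2 that of the others was -0.02. Without a mismatch allowed, 40 genes matched, with a median of 0.13, and the 97 others had a median of -0.01. KRAB genes carried a median of 11 C2H2 fingers and the others 7. By finger number, the median log2 fold change was 0.04 in the 18 genes with 0 to 3 fingers, and in the 38 with 4 to 9 fingers -0.02, in the 52 with 10 to 14 fingers 0.02 and in the 29 with 15 to 33 fingers 0.06. More than 20% of exonic 50-base words were copied elsewhere in 20 genes, all of them KRAB genes, and of these 2 rose and 0 fell.

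Among the 207 lower-numbered zinc finger genes, Zfp1 to Zfp599, 0 were higher and 4 lower at the study's thresholds, which 1.36% and 3.15% of all genes passed. At an adjusted p under 0.05, 35 rose and 29 fell of the 207, beside 16.4% and 15.8% of all genes tested, their median log2 fold change was 0.07, and the 95% interval lay within 2-fold for 82.6%. Their 97 KRAB genes had a median of 0.07 and the 110 others 0.05, set beside 0.12 and -0.10 in the higher-numbered genes.

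Clusters were taken as runs of at least 3 of the 137 genes with neighbours at most 1 Mb apart. There were 13, with 76 genes on chromosomes 6, 7, 8, 13, 15 and 17. The median log2 fold change was 0.07 for the clustered genes and -0.03 for the 61 others. Within KRAB genes, the 62 in clusters had a median of 0.14, with 9 higher and 2 lower at an adjusted p under 0.05, and the 27 outside had a median of -0.03, with 4 higher and 4 lower, where 16.4% of all genes tested were higher and 15.8% lower. These are 14.5% and 3.23% of the clustered KRAB genes, and 14.8% each of the others. The 2 clusters of chromosome 17 lay on different sides of 0. The 11 KRAB genes from Zfp677 to Zfp945, at chr17:21520712-23004101, had a median of -0.22, with 3 positive, and the 14 other genes between them -0.36. The 8 KRAB genes from Zfp871 to Zfp955b, at chr17:32908181-33440141, had a median of 0.17, with 7 positive, and the 8 other genes between them 0.29. The other genes of chromosome 17 had a median of -0.12. In both clusters of chromosome 17 together, only Zfp948 passed an adjusted p of 0.05. On chromosome 13, the 10 entries from Zfp640 to Zfp738 had a median of 0.15, beside -0.03 for the rest of the chromosome and 0.19 for the 19 other genes between them, and Zfp953 alone passed (0.39, adjusted p = 0.0419).

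**Figure D4:**
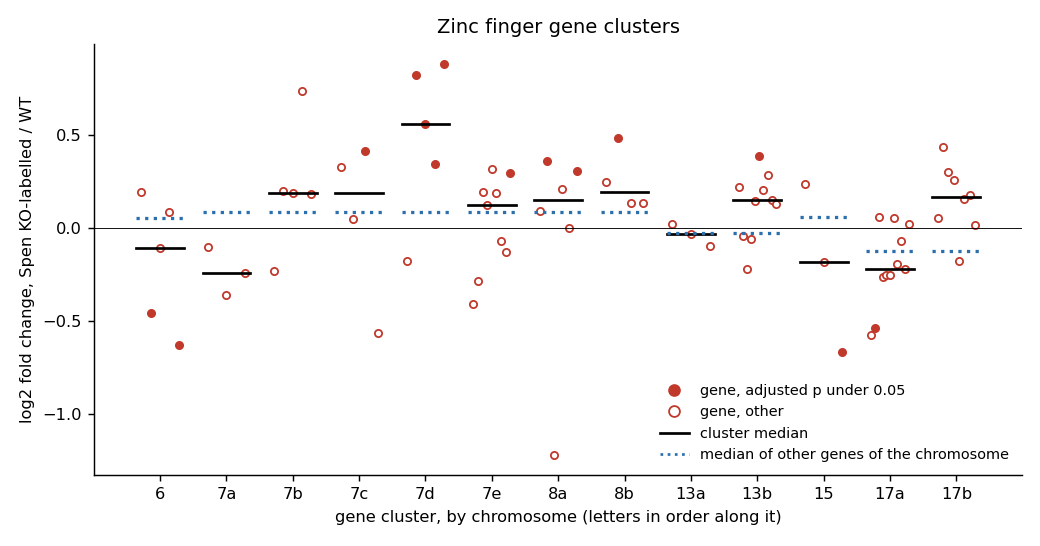
Log2 fold change of each gene in the 13 clusters, named by chromosome with letters in order along it; filled circles passed an adjusted p of 0.05, black lines are cluster medians and dotted lines the median of the other genes of the chromosome. The cluster 7d, which holds Zfp715 and Zfp819, has the highest median, 0.56.

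The cluster with the highest median was the run of 5 KRAB genes on chromosome 7 whose promoters are shown above, at chr7:50442540-50873655. Its median was 0.56, beside 0.09 for the other genes of chromosome 7, and 4 of its 5 genes rose at an adjusted p under 0.05, where 16.4% of all genes tested did. Zfp936, the first of the run, held 1384 and 1249 normalized counts in WT and 1283 and 1052 in KO-labelled libraries, and its groups overlapped (-0.17 ± 0.13, adjusted p = 0.339). Zfp719 held 1550 and 1570 in WT and 2007 and 1956 in KO-labelled libraries (0.34 ± 0.10, adjusted p = 0.00250). The 4 genes that rose are the 4 whose promoters held GCATGCGC, while the other two genes with these letters had log2 fold changes of 0.60 (Zfp653, adjusted p = 0.0972) and 0.04 (Zfp639, adjusted p = 0.835). Over 529 other protein-coding genes with GCATGCGC in the promoter the median log2 fold change was 0.05, and over 9519 without it 0.01.

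The increase in this run was not limited to zinc finger genes. Between Zfp936 and Zfp819 lie 9 other genes with an adjusted p, and their median log2 fold change was 0.90. Siglec5, a receptor for sialic acid, held 86.2 and 74.1 normalized counts in WT and 337 and 310 in KO-labelled libraries (2.02 ± 0.26, adjusted p = 3.53e-13). Etfb, a subunit of the mitochondrial electron transfer flavoprotein, held 5110 and 4844 in WT and 6877 and 7035 in KO-labelled libraries (0.48 ± 0.08, adjusted p = 2.31e-09). EU599041 (0.53, adjusted p = 0.0126), Lim2 (1.69, adjusted p = 0.0453) and Vsig10l (0.90, adjusted p = 0.00689) also rose, and Cd33, Siglecg, Cldnd2 and Iglon5 did not pass. In the 0.5 Mb beyond Zfp819, Klk8 rose (0.79, adjusted p = 0.000491), while Ctu1 (-0.34, adjusted p = 0.0665), Ceacam18, Klk13, Klk11, Klk10, Klk9 and Klk7 did not pass. The window was set around Zfp819 after the values had been seen, so its counts and median are a description.

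**Figure D5:**
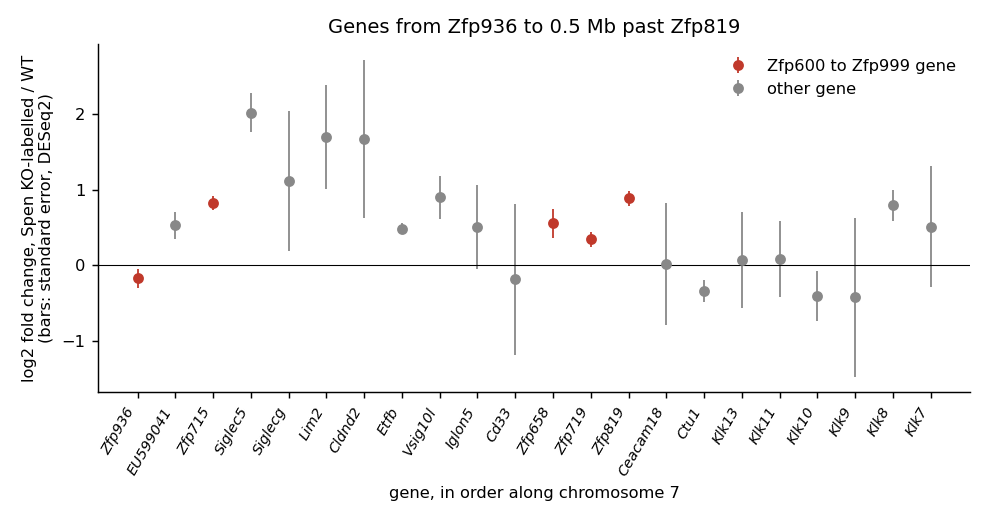
Log2 fold change with its standard error (DESeq2) for genes in order along chromosome 7, from Zfp936 to 0.5 Mb past Zfp819; zinc finger genes of the set are red and other genes grey. Siglec5 stands highest, at 2.02, and the 4 zinc finger genes after Zfp936 lie between 0.34 and 0.88.

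Further motifs were counted in the 116 promoters. TGGGAA, the core bound by RBPJ, was searched for because Spen is known as an RBPJ corepressor, and was found on either strand in 37.9% of them, against 25.5% of all RefSeq promoters. It stood in 43.8% of KRAB gene promoters and in 25.0% of the others. In the 44 genes with TGGGAA the median log2 fold change was -0.03, and 4 rose and 5 fell at an adjusted p under 0.05. The 72 without it had a median of 0.13, with 14 higher and 5 lower, where 16.4% of all genes tested were higher and 15.8% lower. Over other protein-coding genes the medians were 0.00 with TGGGAA and 0.02 without. The octamer ATGCAAAT, bound by Oct4 and its relatives, was in 0.862% of the promoters against 1.75% of all, and the GC box GGGCGG in 45.7% against 35.9%. The median number of CG pairs was 12, against 7 for all RefSeq promoters.

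The silencing machinery through which KRAB proteins act was measured as a list of 21 genes with 22 entries. At an adjusted p under 0.05, 9 of the 22 rose and 3 fell, beside 16.4% and 15.8% of all genes tested, and with chromosome medians removed 8 rose and 2 fell. The 8 were not all among the 9. Dnmt3a entered with the removal (0.26, adjusted p = 0.00103, against -0.06 and 0.599 without it), and Cbx1 and Trim28 dropped out. At the study's thresholds only Dnmt3l, the DNA methylation cofactor of germ cells and mESCs, was called. It held 16448 and 15599 normalized counts in WT and 6470 and 6706 in KO-labelled libraries (-1.28 ± 0.07, adjusted p = 1.59e-72). Dnmt3b, a de novo DNA methyltransferase, also fell (-0.79, adjusted p = 3.18e-29), as did the histone deacetylase gene Hdac2 (-0.45, adjusted p = 3.94e-08). Hdac2 and Dnmt3l lie on chromosome 10, where the median of other genes was -0.35. With chromosome medians removed, Dnmt3l was at -0.94 (adjusted p = 2.39e-38), short of the 2-fold threshold, and Hdac2 at -0.10 (adjusted p = 0.344). Setdb1 held 9834 and 9322 in WT and 13503 and 14191 in KO-labelled libraries (0.53 ± 0.07, adjusted p = 1.23e-12). Trim28 held 48880 and 55426 in WT and 67361 and 57119 in KO-labelled libraries (0.26 ± 0.09, adjusted p = 0.0129), without overlap but with 1 KO-labelled library close to the higher WT library, and with chromosome medians removed it did not pass (0.16, adjusted p = 0.169). Atf7ip, the partner of Setdb1, had 1 entry that rose (0.51, adjusted p = 0.000188) and 1 that did not pass (0.08, adjusted p = 0.761).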

How the data were processed

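RNA was sequenced in 2 WT and 2 Spen KO-labelled libraries, grouped by their labels. The authors removed ribosomal RNA, mapped paired 75-base reads to mouse build mm9 with STAR and assigned them to GENCODE vM1 genes with featureCounts. What they deposited were raw counts per gene, not normalized. Tool versions, the strand setting and the handling of multiply mapped reads were not given in the sources used here, so genes with copies or overlaps are uncertain. Nothing says that replicates were separate cultures, so p-values measure the spread between these libraries, which may be technical.

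All genes were fitted in R 4.3.3 by the Wald test of DESeq2 1.42.0 (design of group, default size factors, Benjamini-Hochberg adjustment over 17710 genes); positive log2 fold changes are higher in KO-labelled libraries. edgeR 4.0.16 was the alternative tool, and both were tested on simulated data. KRAB A-box and C2H2 patterns were matched in translations of GENCODE vM1 coding sequences on build NCBIM37, since no protein table was at hand. A gene counted as copied where over 20% of its exonic 50-base words occurred elsewhere in that genome. RefSeq promoters (GRCm38.p6) were used for sequence and motifs only.

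The genes, lists and tests were chosen with earlier results of these data known. Genes named were up to 5 per direction past an adjusted p of 0.05 with the largest change, the 3 highest per length, and those on the list of described roles; others were named for position or after their values were seen. Each library was left out in turn, and size factors, filters, thresholds, chromosome medians and the replicate block were varied. A further gene of this number range is not reported here.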

Additional observations from a re-analysis of the deposited data

How the results depend on the processing

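No gene of the 137 passed the study's thresholds in any of the fits tried (TMM and upper-quartile size factors, a filter of at least 10 counts in at least 2 libraries, edgeR, the replicate block, chromosome medians removed, each library left out), nor at an adjusted p under 0.05 with a 2-fold minimum. Without a fold minimum, 20 rose and 11 fell at an adjusted p under 0.05, and 5 rose and 3 fell at 0.001. The counts at 0.05 moved with the setting: with chromosome medians removed 11 rose, with edgeR 19 fell (and 25 rose), and without the genes of chromosome 7, an alternative chosen after seeing the data, 12 rose. Leaving out 1 library gave 6 to 9 higher and 3 to 4 lower genes: 6 and 4 without WT replicate 1, 9 and 4 without WT replicate 2, 6 and 4 without KO-labelled replicate 1, and 9 and 3 without KO-labelled replicate 2. Fits without 1 library assume that a lone library varies like the other group, and have fewer samples. Shares over all genes are not given for any of the alternative fits, so these counts cannot be set beside all genes.

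The replicate numbers did not pair the libraries, since deviations of same-numbered libraries correlated at -0.018 over 13306 genes. The replicate block gave 8 genes that rose and 6 that fell, all among the 20 and the 11.

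The median of KRAB genes was 0.16 with upper-quartile size factors, 0.087 with chromosome medians removed and 0.031 to 0.15 with 1 library left out. That of genes in which no KRAB pattern was found was -0.0080 with no mismatch allowed and -0.12 to -0.025 with 1 library left out. The median of all 137 stayed within -0.01 to 0.07. The cause of these moves was not tested.

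For the 27 genes named by the rule, Spen included (28 entries), 275 values were computed under the alternatives, of which 215 kept their direction and side of an adjusted p of 0.05, 44 lost that call and 16 reversed, none of them past it. With chromosome medians removed Zfp618 was 0.11, Zfp622 -0.036, Zfp706 -0.019 and Zfp827 -0.076, and with upper-quartile factors Zfp661 was 0.0086. With 1 library left out, the values ran from -0.054 to 0.13 for Zfp622, -0.21 to 0.18 for Zfp661, -0.39 to 0.058 for Zfp711, -0.036 to 0.23 for Zfp746, -0.023 to 0.087 for Zfp827, -0.0068 to 0.26 for Zfp932, and -0.49 to 0.018 and -0.16 to 0.054 for the entries of Zfp708. Zfp819, Zfp715, Zfp740, Zfp830 and Zfp606 stayed past an adjusted p of 0.05 in every fit, with the highest p 6.58e-06, 7.83e-06, 0.00132, 0.0192 and 0.0333. Zfp600, Zfp609, Zfp644, Zfp658, Zfp687 and Zfp839 did not pass it with the block. Their log2 fold changes with the block were 0.37, 0.24, 0.25, 0.56, 0.25 and -0.55, close to those without it.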
